A study of Mus musculus with 18 samples.

Results

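The genes described here are 35 Polycomb group genes of the mouse, which encode subunits of Polycomb repressive complex 2 (PRC2), of Polycomb repressive complex 1 (PRC1) and of the deubiquitinase complex PR-DUB. They were taken by name from a list of known subunits. The rule used no measured value, but members and lists were chosen with earlier results of these data known. All 35 are among the 48440 genes counted and the 13785 genes tested. They fall into 7 groups, with 6 genes for the PRC2 core, 5 for PRC2 accessory subunits, 2 for the catalytic subunits of PRC1, 6 for its PCGF subunits, 8 for canonical PRC1, 5 for variant PRC1 and 3 for PR-DUB.

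PRC2 methylates lysine 27 of histone H3, and PRC1 attaches ubiquitin to histone H2A, a mark that PR-DUB removes. In canonical PRC1 a CBX protein binds the methylated lysine and a PHC protein joins complexes to each other, whereas variant PRC1 carries RYBP or YAF2 in place of CBX. MacroH2A2 differs from histone H2A by a long tail that ends in a macro domain, and macroH2A is often found in broad chromatin domains that also carry the PRC2 mark.

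The cells were dermal fibroblasts of a newborn male mouse of the 129/S6 background, immortalized with SV40, at passages 20 to 30. Per the labels they lack macroH2A1 and macroH2A2 and carry a transgene for macroH2A2-GFP that doxycycline (dox) switches on, and this genotype is shared by all groups from these cells, the untreated ones included. RNA came from cells after 6 and 24 hours in dox at 0.5 ug/ml and from untreated cells (0h), with 3 libraries each that the design text calls biological triplicates. Native ChIP with beads that bind GFP gave 1 library each for 24 hours in dox with 0.5 uM flavopiridol, an inhibitor of CDK9, over the last 18 hours. It also gave 1 library each for 6 and 24 hours in dox after 10 days in 5 uM GSK126, an inhibitor of Ezh2, and 1 each for 0h, 6h, 24h and 5 days (5d) in dox alone. A further ChIP library for the histone variant H2A.Z came from wild-type primary dermal fibroblasts of newborn female 129/S6 mice at passage 0 to 1. No group holds cells without the transgene in dox, so an effect of dox and one of macroH2A2-GFP cannot be told apart, and the labels do not say whether the line is 1 clone.

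RNA libraries held 29338093 to 37793178 counts over genes. The gene of the induced histone, H2afy2, had 10.5, 25.3 and 9.61 CPM at 0h, 823, 833 and 805 CPM at 6h, and 1741, 1713 and 1727 CPM at 24h (CPM, the count scaled to library size, with TMM factors that correct for library composition). H2afy, the gene of macroH2A1, which the labels give as knocked out, averaged 56.8 ± 1.86 CPM at 0h, 56.9 ± 1.16 CPM at 6h and 57.0 ± 4.83 CPM at 24h (SD, n = 3 each), and counts per gene do not show whether these transcripts are intact. Of 10 fibroblast markers 8 passed the filter on low counts, while Lum and Fap stayed under 0.2 CPM, and the summed level of the 10 was 10019 to 10302 CPM at 0h, 9304 to 9576 CPM at 6h and 9501 to 9854 CPM at 24h. Of the 8 tested, 1 was higher and 5 were lower at 6h than at 0h, beside 20.8% and 18.2% of all genes tested. At 24h against 0h 1 was higher and 4 were lower, beside 4.17% and 2.87% of all genes. Between 24h and 6h 4 were higher and 2 lower at 24h, beside 17.4% and 18.8%. The part of these shifts in the results below was not tested. Markers of keratinocytes, endothelium, leukocytes, melanocytes and muscle summed to at most 6.53, 1.73, 3.98, 0.477 and 0.289 CPM in any library. In the same order, 1 of 5, 1 of 4, 2 of 4, 1 of 4 and 0 of 3 passed the filter and were tested. None of those tested was called in any comparison, and no muscle marker could be. Krt5, Krt1, Adgre1, Dct, Tyr, Myod1 and Myog had 0 counts. Regions of macroH2A2-GFP covered 201 Mb at 0h, 383 Mb at 6h, 363 Mb at 24h and 351 Mb at 5d.

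At 6h the RNA of 15 of the 35 Polycomb genes (42.9%) had changed against 0h, 3 upward and 12 downward (edgeR quasi-likelihood test, Benjamini-Hochberg adjusted p under 0.05 over all genes tested). Over all genes 39% were called, so the share of members called in either direction was near the background. By direction, 8.57% of members were higher against 20.8% of all genes, and 34.3% were lower against 18.2% of all genes. The median log2 change of the 35 members was -0.05, beside 0.01 over all genes tested. The called changes were small: their median size was 0.17 on the log2 scale, and no member reached a 2-fold change. In bulk RNA, fewer cells that express a gene and less RNA per cell cannot be told apart.

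The core of PRC2 split by paralog at 6h. Ezh2, the methyltransferase that predominates in dividing cells, rose, and Ezh1, the paralog known for its expression in cells that have left the cycle, fell. Ezh2 had 67.9, 69.4 and 68.9 CPM at 0h, 74.4, 75.7 and 81.1 CPM at 6h, and 68.4, 72.4 and 72.1 CPM at 24h. The 6h libraries were the highest for Ezh2 and did not overlap with those of 0h or 24h, and the 6h change was 0.16 ± 0.03 (log2 change ± SE, edgeR adjusted p = 4.11e-04). Ezh1 had 11.5, 11.5 and 13.2 CPM at 0h, 9.26, 9.73 and 9.54 CPM at 6h, and 11.7, 12.4 and 12.8 CPM at 24h. All 6h libraries of Ezh1 lay below all others, with a change of -0.34 ± 0.07 from 0h (edgeR adjusted p = 4.96e-04). Eed, the subunit that binds methylated lysine 27 and stimulates the enzyme, followed Ezh2 with 62.5, 62.2 and 61.8 CPM at 0h, 69.9, 69.0 and 68.1 CPM at 6h, and 64.7, 60.6 and 66.0 CPM at 24h. It rose by 0.15 ± 0.03 at 6h (edgeR adjusted p = 6.98e-04).

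The 3 other core genes were not called at 6h. Suz12, the scaffold of PRC2, changed by -0.00 ± 0.03 (log2 ± SE) and its libraries overlapped between the 3 times. The histone chaperones Rbbp4 and Rbbp7, which also serve other chromatin complexes, changed by -0.06 and 0.06 (edgeR adjusted p = 0.0821 and 0.0645), and each passes the threshold when 1 library is left out or only the libraries of 6h and 0h are fitted (0.0266 and 0.0328). Rbbp4 was called at 6h without 0h replicate 1 (adjusted p = 0.0262) or without 24h replicate 3 (0.0484), and Rbbp7 without 24h replicate 1 (0.0314) or 24h replicate 3 (0.0304).

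Among the accessory subunits of PRC2, Phf1 was the one called at 6h. Phf1 encodes a Polycomb-like protein that binds methylated lysine 36 of histone H3 through its Tudor domain. It had 27.5, 25.1 and 24.1 CPM at 0h, 18.0, 19.5 and 19.9 CPM at 6h, and 26.6, 26.2 and 25.2 CPM at 24h. The 6h libraries stood clear below the others, and the change of -0.42 ± 0.06 was the largest fall among the 35 members at 6h (edgeR adjusted p = 5.83e-07). Its relatives Mtf2 and Phf19 changed by 0.05 and -0.05, and Jarid2 and Aebp2, which define the PRC2.2 form of the complex, by 0.13 and -0.01, with none of the 4 called.

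Promoter windows, taken from RefSeq (GRCm38.p6) as 250 bases before to 50 bases after a start site, were on hand for 31 of the 35 members. The letters TTTNNCGC with each N either C or G, the core of the motif of the E2F cell cycle factors, were searched on both strands. They occurred in 1 window each of Ezh2, Suz12 and Phf19, which is 3 of the 44 windows of members (6.82%), beside 2.28% of all 32619 windows. The letters include CG, and members' windows held a median of 23.5 CG pairs against 7 over all windows. The 2 shares are not matched for this, so no enrichment is read from them. E2F factors are known to activate Ezh2 in dividing cells. The 3 windows are shown because they carry these letters in genes of PRC2, of which Ezh2 was called at 6h and Suz12 and Phf19 were not. All 3 lay inside H2A.Z regions and outside macroH2A2-GFP regions in every library. Each runs 5′ to 3′ in the direction of transcription, and capitals mark the motif, which begins 3 bases past the start in Ezh2 (chr6:47594981-47595280, minus strand), 219 bases before it in Suz12 (chr11:79992856-79993155, plus strand) and 208 bases before it in Phf19 (chr2:34913927-34914226, minus strand), where it reads as its reverse complement.

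Ezh2: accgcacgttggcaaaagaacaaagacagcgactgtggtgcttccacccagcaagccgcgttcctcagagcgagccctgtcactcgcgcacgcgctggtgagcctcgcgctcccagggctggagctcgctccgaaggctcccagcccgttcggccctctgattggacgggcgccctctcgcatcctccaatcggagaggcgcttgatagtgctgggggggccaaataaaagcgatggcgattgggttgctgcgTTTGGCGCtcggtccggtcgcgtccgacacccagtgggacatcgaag

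Suz12: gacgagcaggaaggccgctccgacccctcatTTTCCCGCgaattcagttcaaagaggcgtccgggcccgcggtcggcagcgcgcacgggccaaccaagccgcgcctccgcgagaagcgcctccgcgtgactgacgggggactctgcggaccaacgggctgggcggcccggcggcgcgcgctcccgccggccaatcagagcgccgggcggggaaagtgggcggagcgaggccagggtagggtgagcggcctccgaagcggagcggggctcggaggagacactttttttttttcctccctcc

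Phf19: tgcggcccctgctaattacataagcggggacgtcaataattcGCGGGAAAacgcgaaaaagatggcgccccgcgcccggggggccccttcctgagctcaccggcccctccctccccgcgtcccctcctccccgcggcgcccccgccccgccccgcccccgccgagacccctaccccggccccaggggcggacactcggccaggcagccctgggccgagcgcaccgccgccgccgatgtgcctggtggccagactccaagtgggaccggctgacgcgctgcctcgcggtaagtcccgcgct

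Of the 8 genes of canonical PRC1, 5 were lower at 6h (62.5%, beside 18.2% of all genes), none was higher (beside 20.8%) and 3 were not called. Their median log2 change was -0.19, and the list as a whole was not tested. Cbx6, one of the CBX chromodomain genes, had 183, 179.6 and 177 CPM at 0h, 152, 149 and 158 CPM at 6h, and 175, 177 and 177 CPM at 24h. It was lower in all 6h libraries, by -0.23 ± 0.03, and had the smallest adjusted p of the members (edgeR, 9.00e-08). Phc1, a polyhomeotic gene whose product polymerizes through its SAM domain, had 34.2, 36.1 and 36.4 CPM at 0h, 31.0, 30.1 and 31.4 CPM at 6h, and 32.5, 34.1 and 33.2 CPM at 24h. It fell by 0.21 ± 0.04 on the log2 scale with no overlap between 6h and 0h libraries (edgeR adjusted p = 3.09e-04).

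Scmh1, a homolog of fly Sex comb on midleg, had 32.1, 32.3 and 35.4 CPM at 0h, 30.3, 29.1 and 29.4 CPM at 6h, and 35.3, 33.5 and 34.1 CPM at 24h. The 6h libraries were the lowest, at -0.17 ± 0.05 from 0h (edgeR adjusted p = 0.00484), and the call was lost without 0h replicate 3 (0.0561). Cbx7, a CBX gene known to delay senescence in fibroblasts, had 12.8, 13.2 and 13.6 CPM at 0h, 9.82, 11.8 and 10.2 CPM at 6h, and 12.5, 13.1 and 12.3 CPM at 24h. Its fall of 0.32 ± 0.07 (log2) at 6h was called (edgeR adjusted p = 9.10e-04). Cbx8, the gene with the lowest counts of the called members, changed by -0.28 ± 0.11 with an adjusted p of 0.0463 (edgeR). That call was lost by DESeq2 (0.0712) and when any 1 library of 0h (0.0802 to 0.0948) or 6h replicate 3 (0.213) was taken out. Cbx2, Phc2 and Phc3 changed by -0.09, 0.01 and -0.07 and were not called.

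Among the 6 PCGF genes, each of which gives a PRC1 complex its identity, 3 fell and 1 rose at 6h. These are 50.0% and 16.7%, beside 18.2% lower and 20.8% higher over all genes, and the list as a whole was not tested. Bmi1, also named Pcgf4 and known to repress the Ink4a/Arf locus, had 133, 124 and 127 CPM at 0h, 114, 112 and 116 CPM at 6h, and 124, 122 and 123 CPM at 24h. It was lower in every 6h library, by -0.17 ± 0.03 on the log2 scale (edgeR adjusted p = 3.62e-05). Pcgf5 had 41.7, 41.3 and 41.0 CPM at 0h, 37.6, 37.6 and 38.0 CPM at 6h, and 44.3, 41.3 and 43.6 CPM at 24h. It changed by -0.13 ± 0.04 (edgeR adjusted p = 0.00854). Pcgf2, also named Mel18 and the close relative of Bmi1, changed by -0.16 ± 0.05 (edgeR adjusted p = 0.0148), a call lost without 0h replicate 3 (0.123) or 6h replicate 1 (0.0808).

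Pcgf3, whose product shares a variant complex type with Pcgf5, went the other way. It had 149, 149.6 and 148 CPM at 0h, 163, 158 and 162 CPM at 6h, and 146, 145 and 143 CPM at 24h. Its 6h libraries were the highest, with a change of 0.11 ± 0.03 (edgeR adjusted p = 7.90e-04). Pcgf1 and Pcgf6 changed by 0.23 and 0.10 without passing, and each did pass once 1 library was left out: Pcgf1 without 6h replicate 1 (adjusted p = 0.0267) and Pcgf6 without 0h replicate 1 (0.0144).

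The 2 ubiquitin ligases of PRC1 changed little at 6h. Rnf2, known as Ring1b, was called at -0.10 ± 0.03 (log2 ± SE, edgeR adjusted p = 0.00985), and Ring1, known as Ring1a, stood at 0.06 ± 0.08 without a call. In variant PRC1, Bcor, a corepressor of the Pcgf1 complex, had 59.7, 62.5 and 60.3 CPM at 0h, 54.2, 52.3 and 52.5 CPM at 6h, and 59.0, 57.7 and 54.9 CPM at 24h. All 6h libraries of Bcor were below all others, at -0.20 ± 0.04 from 0h (edgeR adjusted p = 5.54e-05). Rybp, Yaf2, the CpG-binding Kdm2b and the Pcgf6 partner L3mbtl2 changed by 0.07, -0.05, -0.09 and 0.08, with none called, though L3mbtl2 passed with unstranded counts (edgeR adjusted p = 0.0375). No PR-DUB gene was called at 6h: the deubiquitinase Bap1 changed by -0.00, and its cofactors Asxl1 and Asxl2 by -0.03 and 0.06.

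**Figure D1:**
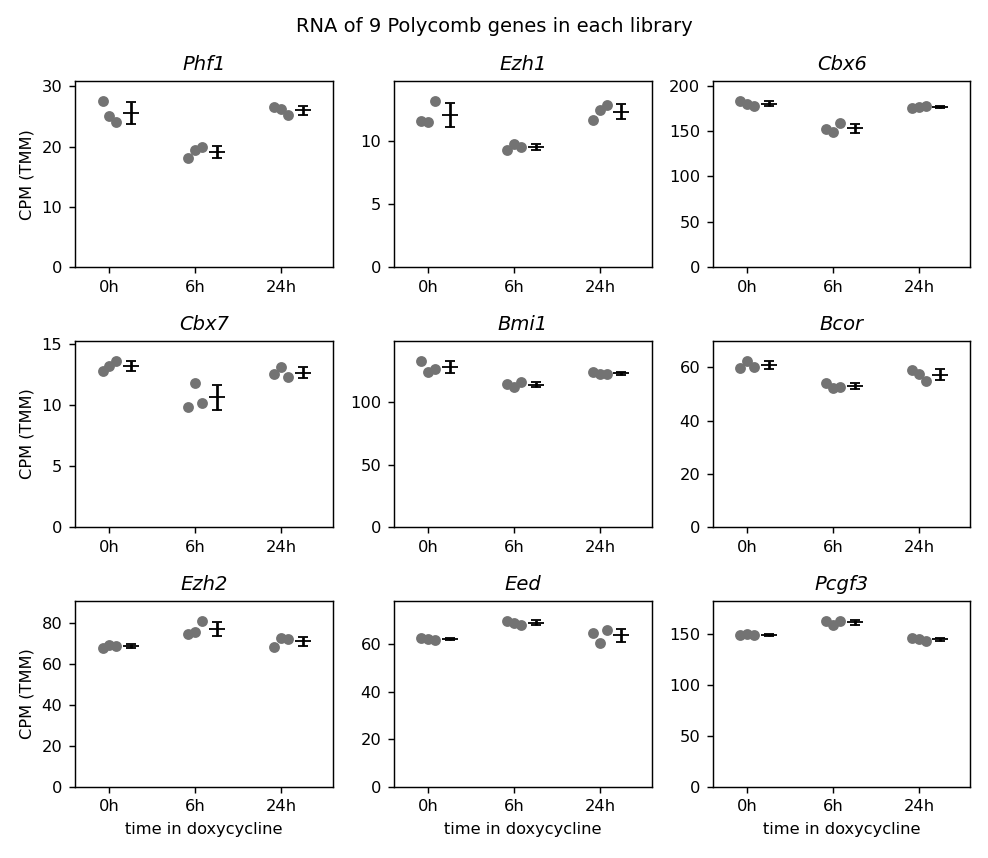
RNA of 9 Polycomb genes in each of the 9 libraries (grey points, CPM after TMM scaling, axes from 0) at 0h, 6h and 24h in doxycycline, with the mean and SD of 3 libraries beside them. Phf1, Ezh1, Cbx6, Cbx7, Bmi1 and Bcor were lower at 6h, and Ezh2, Eed and Pcgf3 were higher.

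At 24h none of the 35 members differed from 0h by edgeR, where 7.04% of all genes were called, 4.17% higher and 2.87% lower. DESeq2 also called 0, and 7 members had an unadjusted edgeR p under 0.05, against 19.5% of all genes. The changes ran between -0.15 for Cbx8 and 0.20 for Ring1 (log2), and Ezh2 and Ezh1 stood at 0.04 ± 0.04 and 0.03 ± 0.07. A p above the threshold does not show equal levels, and up to 2 members were called when 1 library was left out. These were Rbbp4 without 0h replicate 3 (log2 change 0.10, edgeR adjusted p = 0.0256) and, without 24h replicate 1, Rbbp4 (0.0255) and Phc3 (log2 change -0.13, 0.0425). Without 24h replicate 3 they were Ring1 (log2 change 0.30, 0.0375) and Phc2 (log2 change -0.11, 0.0208).

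Between 24h and 6h, 17 of 35 members (48.6%) differed, 10 higher and 7 lower at 24h, against 36.1% of all genes. The share higher was 28.6%, beside 17.4% of all genes, and the share lower was 20.0%, beside 18.8%. This comparison shares its 6h libraries with the one against 0h, so the pair is not independent, and the values are given side by side.

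Phf1 was higher at 24h than at 6h by 0.45 ± 0.06 (log2 ± SE, edgeR adjusted p = 2.90e-07), after -0.42 at 6h. Cbx6 was higher by 0.20 ± 0.03 (edgeR adjusted p = 1.07e-06) and Ezh1 by 0.37 ± 0.07 (2.45e-04). For these genes the 24h libraries lay above all 6h libraries. Scmh1, Pcgf5, Pcgf2 and Bmi1 were higher by 0.21, 0.19, 0.20 and 0.11 (edgeR adjusted p = 5.32e-04, 2.77e-04, 0.00394 and 0.00362).

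Cbx7 and Bcor were higher by 0.25 and 0.11 (edgeR adjusted p = 0.00799 and 0.0177). The Cbx7 call was lost without 6h replicate 1 (0.0684), and the Bcor call without 6h replicate 2 (0.0675) or 24h replicate 1 (0.110). Rbbp4 had not been called at 6h and was higher at 24h. It had 421, 432 and 449.6 CPM at 0h, 422, 416 and 412 CPM at 6h, and 444, 457 and 469.9 CPM at 24h. Its change between 24h and 6h was 0.13 ± 0.03 (edgeR adjusted p = 2.34e-04).

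Pcgf3 was lower at 24h than at 6h by -0.15 ± 0.03 on the log2 scale (edgeR adjusted p = 2.79e-05), the firmest of the 7 falls. Ezh2 and Eed changed by -0.12 and -0.11 (edgeR adjusted p = 0.00836 and 0.00969). The Ezh2 call was lost without 6h replicate 3 (log2 change -0.07, adjusted p = 0.128) or 24h replicate 1 (0.0633), and the Eed call without 24h replicate 2 (log2 change -0.07, adjusted p = 0.135). Jarid2, L3mbtl2, Asxl2 and Phc2 changed by -0.21, -0.11, -0.10 and -0.08 (edgeR adjusted p = 0.0231, 0.0103, 0.0436 and 0.0294), and each of the 4 calls was lost in the absence of some single library. Without 1 library the adjusted p reached 0.112 for Jarid2 (24h replicate 3), 0.0500 for L3mbtl2 (6h replicate 2), 0.269 for Asxl2 (6h replicate 2) and 0.220 for Phc2 (24h replicate 2). Jarid2 missed it, too, when 6h replicate 1 (0.0727), 6h replicate 3 (0.0636) or 24h replicate 2 (0.0507) was taken out. Phc2 also missed the threshold in the absence of any 1 library of 6h (0.0684 to 0.0800) or of 24h replicate 1 (0.134). For Asxl2 the same held for 0h replicate 2 (0.0554), 6h replicate 3 (0.0829), 24h replicate 2 (0.145) and 24h replicate 3 (log2 change -0.06, 0.267). With all libraries in place the Asxl2 call was also lost under RLE scaling (0.0522), without the filter on low counts (0.0516), with only the 6 libraries of 24h and 6h (0.0618) and by DESeq2 (0.0903). Phc1 passed under RLE scaling (log2 change 0.11, edgeR adjusted p = 0.0496). Aebp2 and Ring1, not called with all libraries, were called without 24h replicate 3 (log2 change -0.07 and 0.24, adjusted p = 0.0429 and 0.0271).

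**Figure D2:**
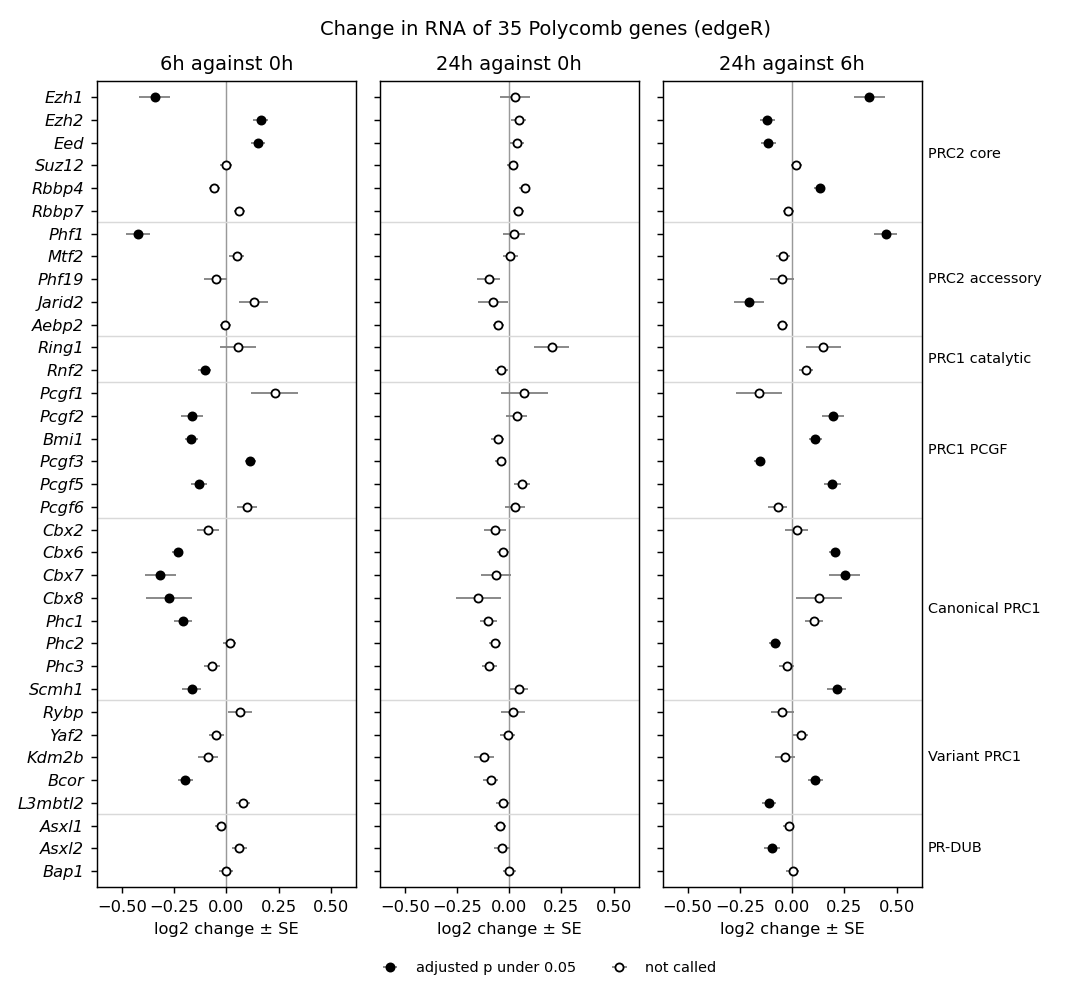
Log2 change in RNA (horizontal axis, ± SE from edgeR) of the 35 Polycomb genes, ordered by complex, for 6h against 0h, 24h against 0h and 24h against 6h. Filled points mark the 15, 0 and 17 members called in the 3 comparisons.

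A further 36 genes linked to Polycomb complexes, such as partners, readers and demethylases, were read from the same fit, and 32 of them were tested. At 6h, 9 (28.1%) were higher and 8 (25.0%) lower than at 0h, beside 20.8% and 18.2% of all genes. At 24h, 1 was higher and 1 lower than at 0h (3.13% each), beside 4.17% and 2.87% of all genes. Between 24h and 6h, 3 (9.38%) were higher and 6 (18.8%) lower, beside 17.4% and 18.8% of all genes. Kdm6b, a demethylase that removes the PRC2 mark from lysine 27, had 32.0, 32.1 and 30.8 CPM at 0h, 40.9, 40.0 and 41.4 CPM at 6h, and 31.8, 31.3 and 28.6 CPM at 24h. It rose by 0.37 ± 0.04 at 6h and was lower by 0.42 ± 0.04 at 24h than at 6h (log2, edgeR adjusted p = 1.19e-07 and 1.70e-08). Mga, a scaffold of the Pcgf6 complex, changed by 0.20 at 6h and -0.18 between 24h and 6h (edgeR adjusted p = 5.58e-05 and 3.17e-04). The casein kinase subunit Csnk2b rose by 0.16 at 6h (1.41e-05), and the deacetylase gene Hdac2 changed by -0.11 between 24h and 6h (0.00117). Against 0h, the genes called at 24h were Skp1a (0.10, edgeR adjusted p = 0.0209) and Hcfc1 (-0.12, 0.0101).

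Regions of macroH2A2-GFP lay in many of the Polycomb genes at 6h and in few of them at 24h. Coverage is the percent of gene body bases inside called regions, with 1 kb trimmed at both ends, and with 1 library a condition there is no test of its differences. A difference of 20 percentage points is the size named here. It was reached upward by 15 members between 6h and 0h and downward by 15 members between 24h and 6h, with none the other way. Over all 18415 protein-coding genes of 3 kb or more, 22.9% gained that much between 6h and 0h and 18.1% lost it between 24h and 6h, while 1.78% lost it between 6h and 0h and 7.6% gained it between 24h and 6h. Over the 10226 of these genes that averaged at least 1 CPM at 0h, the shares were 33.3% and 29.6%, against 42.9% of members in each comparison. These 2 comparisons share the 6h library. The counts depended on regions of low score. With only regions at or above the median score of their list, 3 members gained 20 points between 6h and 0h, beside 5.39% of all genes. Between 24h and 6h 3 then lost as much and 1 gained it, beside 3.8% and 3.97% of all genes. Between 5d and 24h no member differed by 20 points, where 1.67% of all genes were higher and 5.58% lower.

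**Figure D3:**
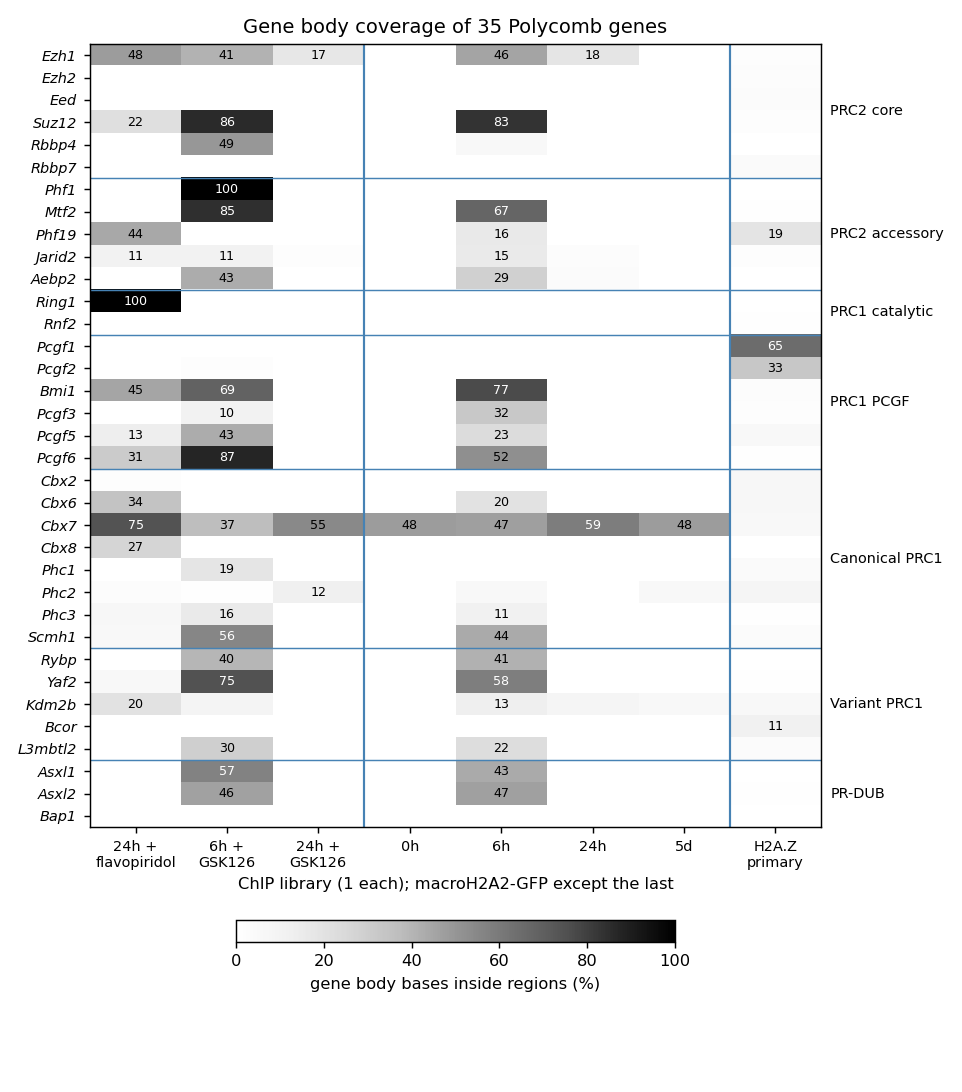
Percent of the trimmed gene body inside called regions for each of the 35 Polycomb genes (rows, by complex) in the 8 ChIP libraries (columns, 1 library each). Values of 10% and more are printed. At 6h 16 genes (45.7%) held 20% or more, beside 36.1% of genes with 1 CPM or more. At 24h Cbx7 was the gene that did (2.86%), beside 7.41%.

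In the PRC2 core, Suz12 (chr11:79993106-80034123, GRCm38.p6) had 83.4% of its body covered at 6h, against 0% at 0h, and 0% at 24h and 5d. Its RNA was not called in any comparison. At 6h 4 regions lay in the gene, the first at chr11:79994601-80011200, and the H2A.Z region of primary cells over its start, chr11:79991801-79994800, reached just into that one. Ezh1 had 45.6% at 6h, against 0% at 0h, and kept 18.0% at 24h before 0% at 5d. The 0% at 5d depended on the settings of the region calls. A further list of the 5d library, called with a wider window and gap, covered 13.4% of Ezh1 by a region of 32.0 kb (chr11:101221001-101253000). Ezh2, Eed and Rbbp7 had no base of the trimmed body in any of the 7 macroH2A2-GFP lists, so Ezh1 and Ezh2 stood apart in coverage at 6h. Rbbp4 had 5.33% at 6h and none at 0h, 24h and 5d.

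Among PRC2 accessory genes, Mtf2 had 67.4% at 6h in 7 regions, and none at 0h, 24h or 5d. Aebp2 and Phf19 had 28.9% and 16.1% at 6h. Aebp2 was at 2.96% at 24h and Phf19 at 0%. Jarid2, the longest gene of the list, had 15.4% at 6h and 2.65% at 24h, and Phf1, the gene with the largest fall in RNA, had none at any time in dox alone.

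The PCGF genes covered at 6h were Bmi1 (76.6%), Pcgf6 (52.1%), Pcgf3 (32.5%) and Pcgf5 (23.1%), each at 0% at 0h, 24h and 5d. Pcgf1 and Pcgf2 were at 0% at all 4 times, as were the ligase genes Ring1 and Rnf2. Untrimmed, Ring1 had 10.5% at 6h and at 24h, from regions that ran into the end of the gene. In variant PRC1, Yaf2 (58.3%), Rybp (41.2%) and L3mbtl2 (22.3%) were covered at 6h and at 0% at the other times. Kdm2b held smaller amounts, 13.0% at 6h, 8.58% at 24h and 5.66% at 5d, and Bcor none. In PR-DUB, Asxl2 and Asxl1 reached 46.9% and 43.4% at 6h and had 0% at 0h, 24h and 5d, and Bap1 stayed at 0%.

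In canonical PRC1, Scmh1 (43.7%) and Cbx6 (20.2%) were covered at 6h and at 0% at 0h, 24h and 5d. Untrimmed, Cbx6 had 25.9% at 6h and 4.18% at 24h, when regions ran into both ends of the gene (chr15:79805201-79824200 and chr15:79834201-79869800). Phc3 and Phc2 had 11.1% and 5.20% at 6h and 0% at 24h. Phc2 had 5.82% at 5d, in another region (chr4:128674601-128680200) than at 6h (chr4:128738201-128743200). Cbx2, Cbx8 and Phc1 had no base of the trimmed body covered at these times. Untrimmed, Cbx2 and Cbx8 had 5.75% and 15.1% at 6h. Just inside the size of 20 points for 6h against 0h were Cbx6 (20.2%) and L3mbtl2 (22.3%), and just outside were Phf19 (16.1%) and Jarid2 (15.4%).

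Cbx7 was the exception in time. It had 47.9% of the body covered at 0h, 47.2% at 6h, 58.8% at 24h and 47.9% at 5d, and it was the 1 member with any base of the trimmed body covered before dox. The annotated gene (chr15:79915804-79971143, minus strand) reaches 38.5 kb beyond the RefSeq start site used here, and in dox alone all of the coverage lay on that upstream side. Over its 37.5 kb left after trimming it amounted to 68.1% at 0h, 67.2% at 6h, 83.6% at 24h and 68.1% at 5d, whereas the 14.8 kb downstream of the start site held none at the 4 times. Regions at 0h came from cells without dox, where H2afy2 stood at 9.61 to 25.3 CPM, and whether they hold the tagged histone was not tested.

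**Figure D4:**
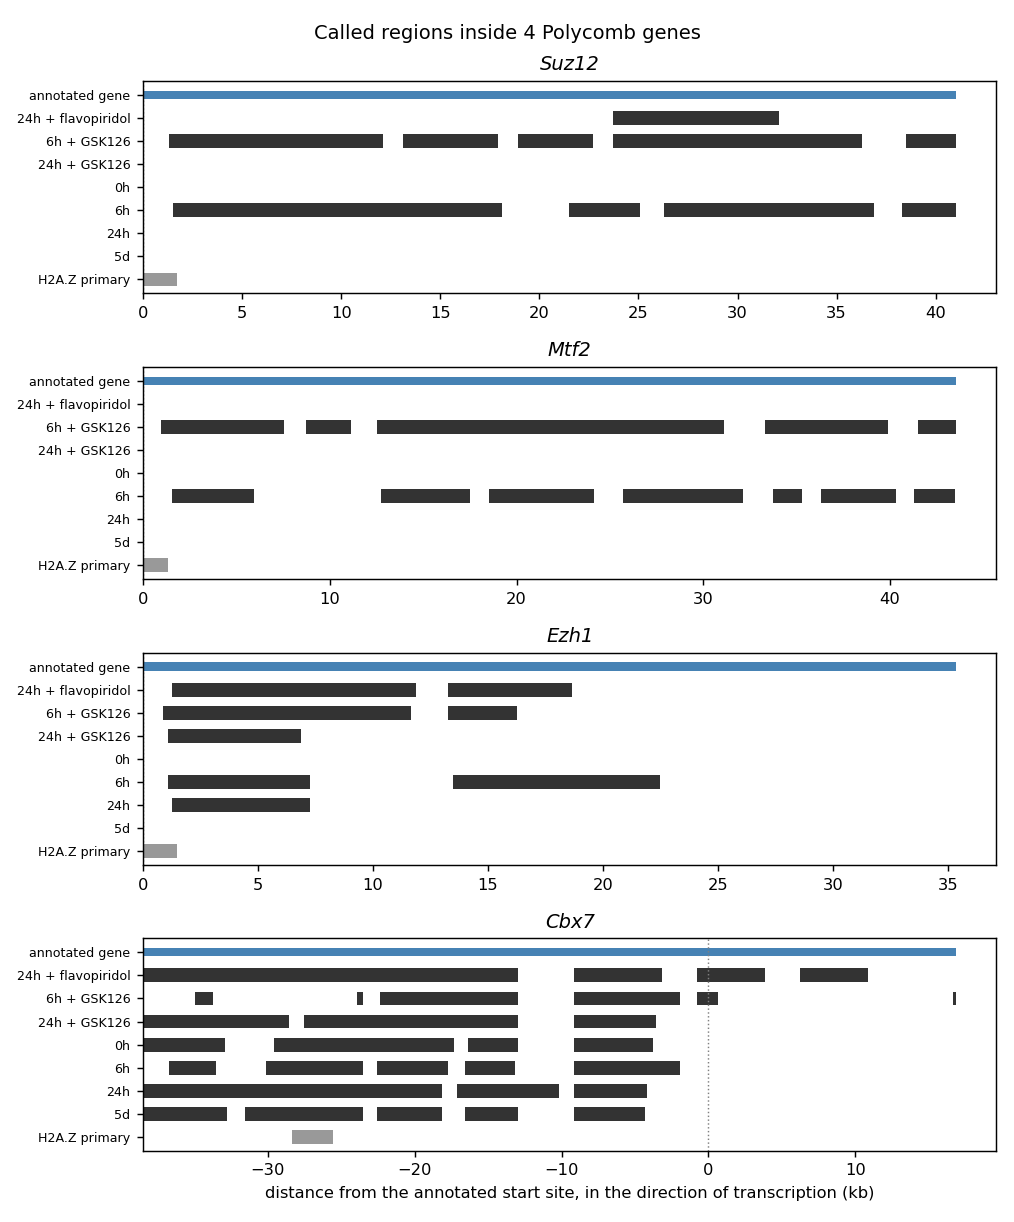
Called regions (dark bars, grey for H2A.Z) along 4 Polycomb genes, clipped to the annotated gene (blue), by distance from the annotated start site in kb in the direction of transcription, 1 row a library. Suz12 and Mtf2 were filled at 6h with or without GSK126 and empty at 0h, 24h and 5d, Ezh1 kept a region near its start at 24h, and the bars of Cbx7 in dox alone all lay upstream of its start site.

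The 16 members with 20% or more at 6h, Cbx7 included, had a median annotated length of 49.4 kb (9.61 to 125 kb), against 22.5 kb (3.30 to 191 kb) for the 19 others. Their median RNA at 0h was 74.0 CPM, against 36.0 CPM, a difference in counts that is not scaled for transcript length. Genes with 1 CPM or more showed the same order for length, with 34.5 kb for those covered at 6h and 22.3 kb for the others. Of the 16 members 13 (81.3%) had no base covered at 24h, beside 66.6% of the 3687 genes with 1 CPM or more that were covered at 6h. In the 27 members of 9 kb or more with a known strand, mean coverage at 6h was 29.6% in the first, 26.8% in the middle and 21.3% in the last of 3 equal parts of the body.

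Coverage and RNA at 6h did not divide the members in the same way. Of the 12 members with lower RNA at 6h, 6 had 20% or more of the body covered and 6 had none. Cbx7, among the covered ones, already had 47.9% at 0h. Of the 3 with higher RNA, 1 (Pcgf3) was covered and 2 (Ezh2 and Eed) had none. Of the 20 not called, 9 were covered at 6h and 5 had none. Among genes with 1 CPM or more, 36.1% had 20% or more covered at 6h and 57.3% had any base covered.

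Flavopiridol, which blocks the kinase that releases paused RNA polymerase II, was added for the last 18 of 24 hours. With flavopiridol 8 of the 35 members (22.9%) had at least 20 points more coverage than at 24h without it against 11.7% of all genes and 16.2% of genes with 1 CPM or more. None had 20 points less, where 3.42% of all genes did. With only regions at or above the median score of their list, 3 members had 20 points more, beside 6.39% of all genes. Ring1 was covered over 100.0% of its short trimmed body (1.89 kb) with flavopiridol, against 0% at 24h, by 1 region of 23.4 kb (chr17:34001201-34024600) that ran on past the gene. Untrimmed, Ring1 had 97.9% with flavopiridol and 10.5% at 24h, where a region of 7.4 kb (chr17:34013801-34021200) already ran into the end of the gene. Bmi1 had 45.0% with flavopiridol and Phf19 44.1%, against 0% at 24h for both. Ezh1 had 48.0% with flavopiridol, against 18.0% at 24h. Cbx6, Pcgf6, Cbx8 and Suz12 had 34.4%, 31.2%, 26.7% and 21.5% with flavopiridol, against 0% at 24h. Untrimmed, Cbx6 had 38.7% with flavopiridol and 4.18% at 24h.

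Just outside the 20 points, Cbx7 had 74.5% with flavopiridol, against 58.8% at 24h. The added part included its start site, and 50.2% of the 14.8 kb downstream was covered with flavopiridol, against 0% at 24h. Kdm2b stood at 20.2% with flavopiridol, against 8.58% at 24h. Mtf2, Rybp, Asxl1 and Asxl2, which had 41.2 to 67.4% at 6h, were at 0% at 24h both with and without flavopiridol. With 1 library for each treatment, differences of depth between the libraries cannot be told apart from the treatment.

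With GSK126, which blocks the methyltransferase that Ezh2 encodes, many members were again covered at 6h and most were bare at 24h. At 24h with GSK126, 15 members had at least 20 points less than at 6h with GSK126, against 21.8% of all genes and 35.1% of genes with 1 CPM or more. None had 20 points more, where 4.4% of all genes did. With only regions at or above the median score, 3 had 20 points less, beside 5.53% of all genes. Suz12 had 0% at 24h and 85.9% at 6h, both with GSK126. Mtf2 and Yaf2 likewise had 0% at 24h with GSK126, against 84.6% and 74.7% at 6h with GSK126. Between 24h with GSK126 and 24h without it, no member differed by 20 points, where 1.5% of all genes were higher and 6.38% lower. Cbx7 had 54.6% with GSK126, against 58.8% without, and Ezh1 17.4%, against 18.0%. The 2 largest differences at 24h were Phc2, at 12.5% with GSK126 against 0% without, and Kdm2b, at 0% against 8.58%.

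At 6h, 3 members were higher and 2 lower by 20 points with GSK126 than without it, near the 8.36% and 5.14% of all genes and the 11.1% and 5.08% of genes with 1 CPM or more. With only regions at or above the median score none was higher and 1 lower, beside 2.31% of all genes lower. Over whole genes untrimmed 3 were higher and none lower. Phf1 (chr17:26933127-26937908) was covered over 100.0% of its trimmed body (2.78 kb) with GSK126, against 0% without, by a region of 12.0 kb (chr17:26926201-26938200) that included its promoter window. Rbbp4 had 49.5% with GSK126, against 5.33% without, and Pcgf6 87.3%, against 52.1%. Pcgf3 had 10.5% with GSK126, against 32.5% without, and Cbx6 0%, against 20.2%. Of the 16 members with 20% or more at 6h, 14 (87.5%) also had 20% or more at 6h with GSK126, as had 2 of the 19 others (10.5%, Rbbp4 and Phf1). These shares lay near those of genes with 1 CPM or more, at 86.0% and 15.1%. Ezh2 itself, the target of the drug, had no coverage in either.

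**Figure D5:**
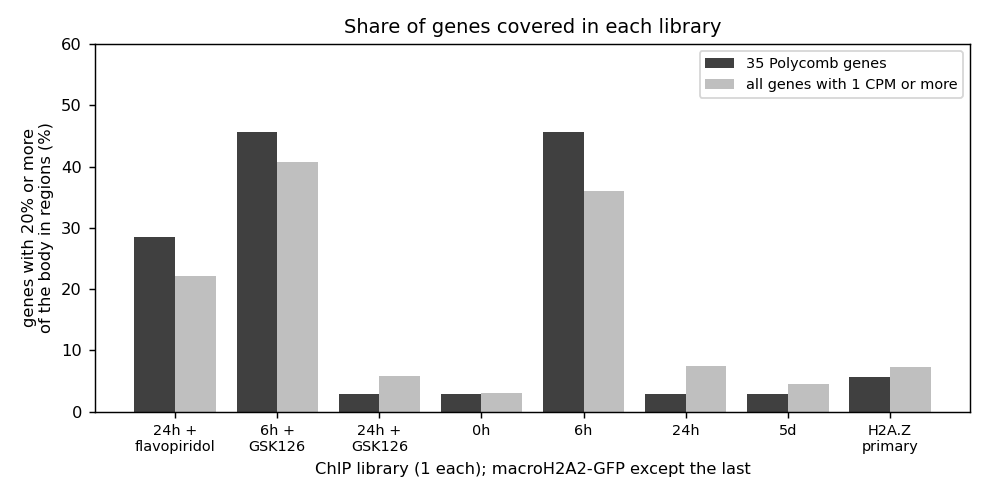
Percent of genes with 20% or more of the trimmed body in called regions, for the 35 Polycomb genes (dark) and the 10226 genes with 1 CPM or more at 0h (light), in each of the 8 ChIP libraries. Members stood at 45.7% at 6h and at 2.86% at 0h, 24h and 5d. Genes with 1 CPM or more stood at 36.1% at 6h and at 2.99%, 7.41% and 4.44% at 0h, 24h and 5d.

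At least 50% of the body was covered in few members: 0 at 0h, 5 at 6h (14.3%), 1 at 24h, 0 at 5d, 2 with flavopiridol, 8 at 6h with GSK126 and 1 at 24h with GSK126. Among genes with 1 CPM or more, the shares in the same order were 0.988%, 15.3%, 2.96%, 1.53%, 9.86%, 18.9% and 1.88%. The 5 at 6h were Suz12, Bmi1, Mtf2, Yaf2 and Pcgf6, so the member share at 6h lay near the background of 15.3%.

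H2A.Z, a variant found beside the start sites of active genes, was mapped in primary cells. Its regions overlapped the promoter windows of 29 of the 31 members with a window, beside 92.0% of 8298 genes with 1 CPM or more. The 2 without were Cbx7 and Aebp2. In gene bodies it reached 50% in Pcgf1 (65.1%), where 1.43% of genes with 1 CPM or more did, and it covered 33.0% of Pcgf2 and 19.1% of Phf19. These cells differ from the line in sex, passage and genotype as well as in the protein mapped, so no difference between the variants is read from them.

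In dox alone, regions of macroH2A2-GFP overlapped a promoter window of at most 1 of the 31 members at any time. At 6h they overlapped windows of 0 members, beside 10.4% of genes with 1 CPM or more. At 0h it was 1 member (L3mbtl2, 3.23%), beside 2.07% of these genes, at 24h 1 member (Cbx6), beside 4.74%, and at 5d 0 members, beside 2.17%. With GSK126 at 6h 6 members (19.4%) had a window overlapped, against 0 at 6h without it, beside 10.6% of genes with 1 CPM or more with GSK126. These were Scmh1, Phc2, Mtf2, Aebp2, Cbx7 and Phf1. The first 4 of these have more than 1 window, and only 1 window of each was overlapped. Those windows of Scmh1, Phc2, Mtf2 and Aebp2 held 0, 19, 2 and 4 CG pairs. The windows of Scmh1 (chr4:120452994-120453293) and Mtf2 (chr5:108077915-108078214) lay inside the gene, and 4.67% of that of Mtf2 was overlapped. With flavopiridol the windows of Cbx6 and Cbx7 were overlapped (6.45% of members, beside 5.84% of these genes), against that of Cbx6 at 24h without it. At 24h with GSK126 it was 0 members, beside 3.36%. Members' windows held a median of 23.5 CG pairs in 300 bases, against 7 over all windows. The latter are not limited to genes with 1 CPM or more, so this is not read as a trait of Polycomb genes.

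The windows of Cbx7 (chr15:79932597-79932896, minus strand), Cbx6 (chr15:79834284-79834583, minus strand) and Ring1 (chr17:34024631-34024930, minus strand) are shown because they belong to the genes where regions with flavopiridol reached the start site or came up to it. The region over Ring1 ended at chr17:34024600, short of its window, which begins at 34024631. They run in the direction of transcription, and capitals mark CG pairs, of which the windows hold 33, 31 and 37.

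Cbx7: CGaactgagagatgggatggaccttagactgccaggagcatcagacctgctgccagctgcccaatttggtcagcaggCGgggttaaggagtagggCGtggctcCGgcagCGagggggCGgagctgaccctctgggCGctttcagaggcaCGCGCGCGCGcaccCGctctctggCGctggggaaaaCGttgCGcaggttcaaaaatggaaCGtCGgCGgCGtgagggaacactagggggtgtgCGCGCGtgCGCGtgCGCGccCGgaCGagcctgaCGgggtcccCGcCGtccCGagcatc

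Cbx6: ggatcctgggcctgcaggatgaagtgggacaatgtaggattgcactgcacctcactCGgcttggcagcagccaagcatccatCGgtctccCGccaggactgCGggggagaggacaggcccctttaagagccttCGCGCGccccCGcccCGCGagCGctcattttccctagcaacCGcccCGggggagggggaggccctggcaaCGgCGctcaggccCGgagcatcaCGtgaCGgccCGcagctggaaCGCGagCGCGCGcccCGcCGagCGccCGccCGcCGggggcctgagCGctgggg

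Ring1: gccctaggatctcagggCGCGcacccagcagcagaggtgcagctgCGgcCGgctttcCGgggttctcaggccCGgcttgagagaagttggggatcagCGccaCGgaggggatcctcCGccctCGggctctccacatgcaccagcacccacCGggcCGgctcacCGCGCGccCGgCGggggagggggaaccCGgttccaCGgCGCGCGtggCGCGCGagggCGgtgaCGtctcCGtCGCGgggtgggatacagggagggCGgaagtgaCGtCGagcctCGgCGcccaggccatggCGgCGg

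The region lists carry a running number with gaps, so each holds only part of the numbered regions, and for 8 of the 35 members a number next to or inside the gene was absent in at least 1 list. The 0h list had the most numbers absent (16.1%, against 3.36 to 6.05% in the other 8 lists), among them 4 at Yaf2, 2 at Phf1 and 1 each at L3mbtl2 and Jarid2. At 6h numbers were absent at Scmh1, Kdm2b, Asxl2, Jarid2 and Ring1, and at 6h with GSK126 at Kdm2b, Jarid2, L3mbtl2, Yaf2, Phf1 and Ring1. At 5d they were absent at Jarid2, Yaf2 and Phf1, and in the other 3 macroH2A2-GFP lists at Jarid2. Coverage of these genes may therefore be too low in those lists, and at Yaf2 and L3mbtl2, counted as gains at 6h, this concerns the 0h value of 0%. Of the 27 members with no absent number at 0h or 6h, 11 gained 20 points between 6h and 0h. The genes with the most coverage at 6h, Suz12, Bmi1 and Mtf2, had no number absent in any list.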

How the data were processed

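RNA and ChIP libraries of mouse fibroblasts were read from the deposited tables. Per the labels and the submitters' processing notes, RNA was aligned with STAR 2.5.2b and ChIP with Bowtie 1.1.2 (GRCm38), and SICER 1.1 called broad regions. As deposited, the RNA tables give raw, unnormalized counts for each gene; the strand column holding at least 96.6% of stranded counts was used. Each region in the deposited lists has a whole-number score, whose reference is not given in the sources used here, and a running number (unit: other), which is not a measurement. The lists were named for a window of 200 and a gap of 800 bases; one further list at 5d used 1000 and 4000. ChIP depth is unknown, and the input library was not used here.

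The quasi-likelihood test of edgeR 4.0.16 (R 4.3.3) was run on all 9 RNA libraries, with filterByExpr as the filter, TMM scaling and time group as the only term, with Benjamini-Hochberg adjustment over 13785 genes and a call at adjusted p under 0.05. SE is the log2 change divided by the square root of F. The common biological coefficient of variation was 2.69%, and TMM factors lay between 0.983 and 1.01. Members had 137 to 17853 counts per library. The fit was tested on simulated counts of the same depth. Replicates of 1 group differed by more than counting noise (chi-square per degree of freedom of at least 2.00 in every pair). Same-numbered libraries did not deviate together (correlations -0.02 to 0.04, none of 9 over 0.1), so the numbers were not used as pairs.

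Gene body coverage used 18415 RefSeq protein-coding genes of at least 3 kb (GRCm38.p6; 17706 matched to counts by symbol), chromosomes 1 to 19 and X, computed in Python 3.11.15 (pandas 2.3.3, numpy 2.4.6); figures used matplotlib 3.10.9. Region starts were read as counted from 0. Alternatives were RLE scaling, DESeq2 1.42.0, no low-count filter, unstranded counts, only the 6 libraries of a contrast, a replicate block, leaving out each library, untrimmed genes, only regions at or above the list's median score, and other coverage cut-offs. Windows at promoters, 3 equal parts of genes and leaving out members with absent running numbers were added after seeing the data. Members and lists were chosen with earlier results of these data known. Named in full with each library's value were, per RNA comparison, the 8 called members with the smallest p, members with 20% or more coverage at 24h or 5d, and Ezh1 and Ezh2; of other Polycomb-linked genes, up to 3 called with the smallest p. Sequences are RefSeq's, matched by symbol for 31 of 35 members; Rybp, Cbx2, Yaf2 and Pcgf1 had no window. Levels were not compared per transcript length.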

Additional observations from a re-analysis of the deposited data

How the results depend on the processing

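Counts of called members at 6h and between 24h and 6h stayed within 1.5 times of 15 and 17 under every alternative tried, with 12 to 17 and 13 to 17 when 1 library was left out, and 14 and 17 with the replicate block. For 24h against 0h the count was 0, also with the replicate block, and 0 to 2 when 1 library was left out. Over all genes, leaving out 1 library gave 4667 to 5566 calls at 6h, 553 to 1148 at 24h against 0h (971 with all) and 4123 to 5047 between 24h and 6h. The block changed 1 call of a named member, Cbx8 at 6h (adjusted p = 0.0523). Ezh1 at 24h against 0h, not called in any setting, ran between log2 changes of -0.0066 and 0.0944 when 1 library was left out, below zero in 3 of these fits. Of the named members' values under alternatives, 473 kept direction and side of the threshold, 34 lost the call and 3 turned sign.

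Coverage counts depended on the score filter and the cut-off. Where no share over all genes is given here or above, the counts show only how the member counts moved. With only regions at or above the median score of their list, counts of members past 20 points were 3 for 6h against 0h, 4 (1 higher, 3 lower) for 24h against 6h, 3 for flavopiridol, 1 for GSK126 at 6h, 1 for GSK126 at 24h and 3 for 24h against 6h with GSK126, and 0 members were covered at 6h, at 6h with GSK126 and at 24h with GSK126. The median score is 1 at 0h and 5d, so there the filter removes nothing. With 40 points and 80%, counts were 9 for 24h against 6h, 3 for flavopiridol and 2 for GSK126 at 6h, and covered members were 1 at 6h, 0 at 24h, 1 with flavopiridol, 4 at 6h with GSK126, 0 at 24h with GSK126 and 0 for H2A.Z. With 10 points and 20%, counts were 2 for 5d against 24h, 14 for GSK126 at 6h and 1 for GSK126 at 24h, and covered members were 1 at 0h, 16 at 6h, 1 at 5d, 10 with flavopiridol, 16 at 6h with GSK126 and 2 for H2A.Z. At 20%, the shares of genes with 1 CPM or more were 2.99%, 36.1%, 4.44%, 22.2%, 40.7% and 7.25% in the same order. Over whole genes untrimmed, 3 members differed with GSK126 at 6h, with none lower. In the list with window 1000 and gap 4000, 1 member (Cbx7) was covered at 5d. Ezh1 had 13.4% in that list, against 0% in the main 5d list, and Kdm2b had 0%, against 5.66%. The cause of these shifts was not tested. Leaving out members with an absent running number left 5 of 30 covered at 6h and 6 of 29 at 6h with GSK126, and, for differences, 11 of 27 higher for 6h against 0h and 13 of 30 lower for 24h against 6h.

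Depth limits both assays: 1 count is worth up to 0.0341 CPM, ChIP depth is unknown, and 1 library a condition gives ChIP differences no error.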
